A study of Mus musculus with 14 samples.

Results

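The Hox genes are the homeobox genes that lie in the HoxA, HoxB, HoxC and HoxD clusters of the mouse genome. Every row whose gene symbol was Hox followed by a cluster letter and a paralog number was taken, which gave 39 of the 41934 genes listed, with no antisense transcript among them. HoxA held 11 genes, HoxB 10, HoxC 9 and HoxD 9.

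Hox genes encode transcription factors that give cells their position along the head-to-tail axis. Their order along a cluster follows the order of their expression along the body, so that low paralog numbers are used up to the hindbrain and high numbers only in the caudal trunk, limbs and genital region. In the nervous system they are expressed in the hindbrain and spinal cord, where they set the identity of rhombomeres and of motor neuron groups, and they are silent in forebrain and midbrain.

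RNA was sequenced from whole brains of individual male mouse fetuses on a C57BL/6J background at the embryonic ages E13.5 and E18.5, in days of gestation. The E13.5 libraries came from 4 Dio3+/+ and 2 Dio3-/- fetuses, and the E18.5 libraries from 3 Dio3+/+ and 5 Dio3-/- fetuses. Dio3-/- fetuses carry point mutations that inactivate the type 3 deiodinase, the enzyme that clears thyroid hormones, while its mRNA is still made. The value used for each gene is the authors' mean normalized count over all libraries of an age, both genotypes pooled, so no spread between fetuses, number of reads or test goes with any value below, and 1 library can carry a mean. The comparison between genotypes was not analysed here. Because the mix of genotypes also differs between the ages, age and genotype cannot be told apart in any comparison of E13.5 with E18.5.

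A smaller part of the Hox genes than of all protein-coding genes was measured. The limit for calling a gene measured was a mean of 10 normalized counts, and 22 Hox genes (56.4%) passed at E13.5 and 17 (43.6%) at E18.5. Among the 21810 protein-coding genes outside the mitochondrial chromosome, 67.6% passed at E13.5 and 68.1% at E18.5. Hoxa7, Hoxb9, Hoxd1, Hoxd4 and Hoxd8 passed at E13.5 alone, and no Hox gene passed at E18.5 alone. The other 17 genes stayed under 10 at both ages, and of these Hoxa11, Hoxc10, Hoxc11 and Hoxc12 were listed at 0 at both. In RNA from a whole brain, fewer cells that express a gene and less RNA per cell cannot be told apart.

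The measured genes fell almost entirely in paralog groups 1 to 8. Every member of groups 2 to 7 was measured at E13.5, and Hoxb9 was the only measured gene of groups 9 to 13. The plot of mean normalized counts by cluster and paralog group shows this edge in all 4 clusters, 1 group further along in HoxB than in HoxD.

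**Figure D1:**
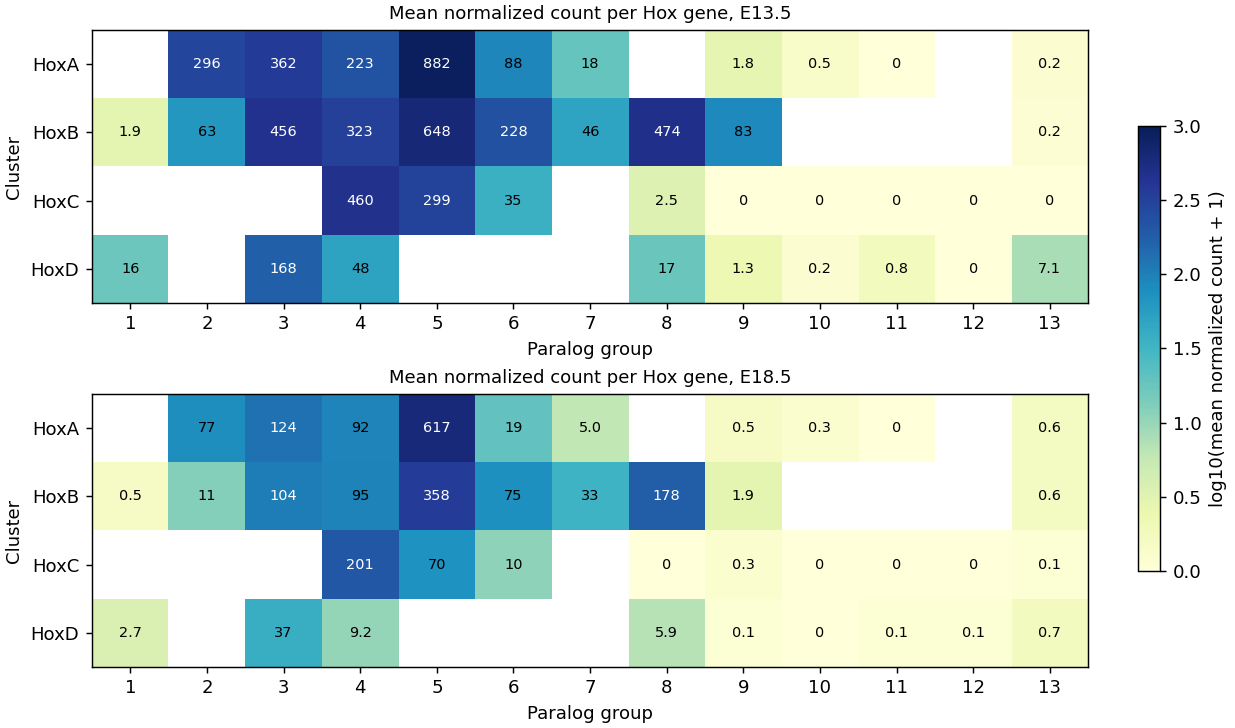
Mean normalized count of each Hox gene over the libraries of E13.5 (top) and E18.5 (bottom), both genotypes pooled, by cluster (rows) and paralog group (columns), coloured on a log10 scale of the count plus 1, with blank cells where there is no gene or its value is not reported here. Hoxa5 has the highest value at both ages (882 and 617), and groups 10 to 13 stay under 10.

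Groups 1 and 2 pattern the rhombomeres of the hindbrain. Hoxb1, which marks a single rhombomere, had a mean normalized count of 1.88 at E13.5 and 0.508 at E18.5. Hoxd1 had 16.3 and 2.69. Both were thus near or under the limit of 10. Hoxa2, the Hox gene that reaches furthest forward in the hindbrain, had 296 and 77.2. Hoxb2 had 63.0 and 11.4.

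Groups 3 to 5, of the caudal hindbrain and upper spinal cord, held most of the Hox RNA. Hoxa3 had a mean normalized count of 362 at E13.5 and 124 at E18.5, Hoxb3 456 and 104, and Hoxd3 168 and 36.9. In group 4 the values were 223 and 91.7 for Hoxa4, 323 and 94.5 for Hoxb4, 460 and 201 for Hoxc4, and 48.2 and 9.22 for Hoxd4. Hoxd4 was the lowest of its group at both ages. In group 5, Hoxa5, which also acts in the brainstem and cervical cord circuits for breathing, had 882 and 617, Hoxb5 648 and 358, and Hoxc5 299 and 70.1.

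Groups 6 to 8 belong to the cervical and thoracic cord, where Hoxc6 and Hoxc8 mark motor neurons that supply the forelimb. Hoxa6 had a mean normalized count of 87.8 at E13.5 and 18.9 at E18.5, Hoxb6 228 and 74.9, and Hoxc6 34.8 and 10.2. Hoxa7 had 17.7 and 5.04, and Hoxb7 46.4 and 32.7. The HoxB member was the highest of each of these groups, by count and per kb of exon. In group 8, Hoxb8 had 474 and 178, Hoxd8 16.6 and 5.91, and Hoxc8 2.45 and 0.

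Hoxb9 was apart from the rest of groups 9 to 13, which pattern the trunk, limbs and tail. It had a mean normalized count of 83.3 at E13.5 and 1.92 at E18.5. The other genes of these groups ranged from 0 to 7.13 at E13.5, the highest being Hoxd13, and from 0 to 0.723 at E18.5. Hotair, the noncoding RNA within the HoxC cluster, was listed at 0 at E13.5 and at 0.121 at E18.5.

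Levels between genes were compared as a share, a gene's mean over the sum of all means of that age, in ppm per kb of exon. Hoxa5 was the highest Hox gene on this scale, with a level of 16.4 ppm per kb at E13.5 and 13.4 at E18.5. Hoxb5 followed with levels of 8.13 and 5.22, then at E13.5 Hoxb8 with 6.29, Hoxc4 with 6.27 and Hoxa2 with 5.83. This order below Hoxb5 depended on the length used, since reads in exons shared with another gene could not be assigned. Per kb of unshared exon at E13.5, Hoxb5 had 8.44, Hoxb3 7.97 and Hoxa2 6.86, while Hoxb8 stayed at 6.29 and Hoxc4 at 6.27. With no spread between fetuses known, the order of neighbours such as Hoxb8 and Hoxc4 cannot be separated. Hoxa5 stood at the 80.4th percentile of levels among the protein-coding genes with at least 10 at E13.5, and Hoxb5 at the 61.7th. Most measured Hox genes were therefore low or moderate in whole brain.

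Levels were lowest toward high paralog numbers in HoxA, HoxC and HoxD, but did not follow position gene by gene. In HoxA they peaked at Hoxa5, and Hoxa2 (5.83 ppm per kb at E13.5) was above Hoxa3 (2.11). In HoxD they peaked at Hoxd3 (1.41), above Hoxd1 (0.306). Spearman's rho between paralog number and level per kb at E13.5 was -0.76 over the 11 HoxA genes, -0.91 over the 9 HoxC genes and -0.77 over the 9 HoxD genes, against 0.03 over the 10 HoxB genes. At E18.5 the values were -0.70, -0.72, -0.67 and 0.05. Over all 39 genes it was -0.70 at E13.5 and -0.66 at E18.5. These are descriptions across genes that share libraries and neighbouring sequence, and they include the genes under 10. In HoxB, Hoxb1 was low while Hoxb5 and Hoxb8 were high, and the sign of its rho at E13.5 turned with other measures of length, to between -0.01 and -0.08.

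**Figure D2:**
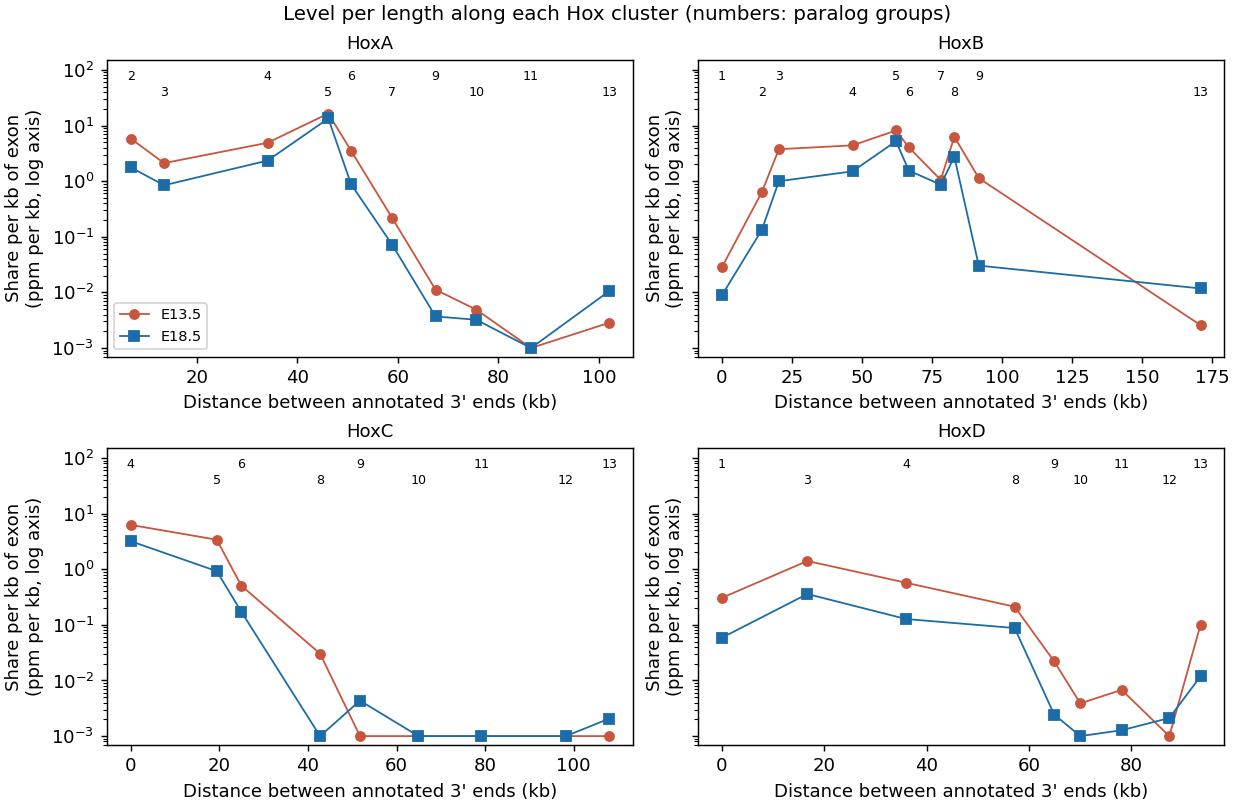
Share of the table per kb of exon (ppm per kb, log axis) of the Hox genes at E13.5 (circles) and E18.5 (squares), against the distance in kb between its annotated 3′ end and that of the gene with the lowest paralog number of the cluster, with genes listed at 0 drawn at the lower edge. Levels peak at Hoxa5 (16.4 ppm per kb at E13.5) and Hoxb5 (8.13), and drop past group 6 in HoxA and HoxC while in HoxB they drop past group 9 at E13.5 and past group 8 at E18.5.

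In GENCODE vM21 on the GRCm38 build, the HoxA genes span chr6:52155590-52260880, HoxB chr11:96194316-96368256, HoxC chr15:102921103-103036852 and HoxD chr2:74668310-74765142. HoxA runs on the minus strand and the others on the plus strand. HoxB is the longest at 174 kb, since Hoxb13 lies far from its neighbours. Exons of several Hox genes are shared with other annotated genes, and reads there could not be assigned to 1 gene. Of the measured genes, Hoxd3 had 37.2% of its exon bases free of any other gene, Hoxb3 47.1% and Hoxd4 47.7%, while 11 measured genes had all of theirs. Exons of 9 measured genes overlapped a gene of the opposite strand, and the counting did not use strand.

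HoxB and HoxA gave most of the Hox RNA. All Hox genes together took 184 ppm of the table at E13.5 and 87.2 ppm at E18.5. Of that sum at E13.5, HoxB held 44.1%, HoxA 35.8%, HoxC 15.1% and HoxD 4.92%. At E18.5 HoxA held 44.2%, HoxB 40.0%, HoxC 13.2% and HoxD 2.61%. Without Hoxa5 the HoxA part was 22.9% at E13.5 and 21.6% at E18.5, so that the higher HoxA part at E18.5 rested on this 1 gene. The order of HoxB over HoxA at E13.5 depended on the measure. Per kb of exon HoxA held 44.01% and HoxB 39.02%, and without genes that overlap an exon of the other strand HoxA held 38.8% and HoxB 35.4%.

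Group 5 was the largest paralog group, with 34.7% of the Hox sum at E13.5 and 48.8% at E18.5. Group 4 held 20.01% and 18.54%, group 3 18.7% and 12.4%, and group 8 9.37% and 8.59%. Group 2 held 6.81% and 4.14%, and group 6 6.66% and 4.85%. Group 9 held 1.64% at E13.5, nearly all of it Hoxb9, and 0.131% at E18.5. On the scale per kb, group 5 held 37.0% and 52.1%, and group 3 9.62% and 5.86%. The genes of group 3 have long exons, but also many exon bases shared with other genes, where reads could not be assigned. Unshared bases made up 72.9% in Hoxa3, 47.1% in Hoxb3 and 37.2% in Hoxd3. Per kb of unshared exon their levels at E13.5 were 2.89, 7.97 and 3.78 ppm, against 2.11, 3.75 and 1.41 per kb of exon. The part of group 3 per kb is therefore likely understated.

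The 17 Hox genes measured at both ages all had a lower share of the table at E18.5 than at E13.5. Their median log2 ratio of E18.5 to E13.5 was -1.39, against -0.05 over 14452 protein-coding genes with at least 10 at both ages. Of the 17, 12 (70.6%) were at least 2 times lower, against 6.56% of those protein-coding genes. Hoxa7, Hoxb9, Hoxd1, Hoxd4 and Hoxd8 passed the limit through E13.5 alone, where they were higher, so their direction follows from how they passed. With these 5 included, the median over 22 genes was -1.56, and 17 were at least 2 times lower, where 7.2% of 15143 protein-coding genes with at least 10 at either age were. No Hox gene was at least 2 times higher, against 13.6% of the protein-coding genes. The tables of the ages were normalized separately, so these ratios are set side by side and carry no test.

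Among the genes measured at both ages, Hoxb2 had the most distant ratio, with a share 4.76-fold lower at E18.5, followed by Hoxa6 at 4.001-fold. Hoxd3 was 3.92-fold lower, Hoxb3 3.76-fold, Hoxc5 3.67-fold and Hoxa2 3.29-fold. These genes came from all 4 clusters and from groups 2, 3, 5 and 6. Hoxc6, Hoxb4, Hoxb6, Hoxa3, Hoxb8 and Hoxa4 lay between 2.95-fold and 2.09-fold lower. The ratios of the 5 genes under 10 at E18.5 rest on few counts at that age, and gave shares 37.3-fold lower for Hoxb9, 5.21-fold for Hoxd1, 4.49-fold for Hoxd4, 3.02-fold for Hoxa7 and 2.42-fold for Hoxd8.

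Hoxc4, Hoxb5, Hoxa5 and Hoxb7 were among the genes less than 2 times lower. Their shares were 1.96-fold, 1.56-fold, 1.23-fold and 1.22-fold lower. Of the protein-coding genes, 33.4% had a lower ratio than Hoxb7 and 32.8% a lower ratio than Hoxa5, so the ratios of Hoxb7 and Hoxa5 were common ones. Fewer had a lower ratio than Hoxb5 (14.8%) or Hoxc4 (7.48%). By paralog group the summed share was 1.504-fold lower in group 5 and 1.46-fold lower in group 7, against 3.48-fold in group 2 and 3.19-fold in group 3. By cluster it was 1.71-fold lower in HoxA, 2.33-fold in HoxB, 2.43-fold in HoxC and 3.99-fold in HoxD. These sums follow their highest genes, such as Hoxa5 (1.23-fold) in HoxA and Hoxd3 (3.92-fold) in HoxD. The median over measured genes was 2.502-fold lower in HoxA, 2.77-fold in HoxB, 2.95-fold in HoxC and 4.196-fold in HoxD. Of the 4 measured HoxD genes, only Hoxd3 had at least 10 at E18.5. Group 7 likewise joined Hoxb7 at 1.22-fold and Hoxa7 at 3.02-fold. No difference between clusters or groups is read from the sums alone. Paralog number and log2 ratio had a rho of 0.14 over the 22 genes, which became -0.13 over genes with at least 80% of their exon bases unshared and 0.31 without Hoxb9, and no order is read from it. The levels per kb of the measured genes at the ages had a rho of 0.93.

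**Figure D3:**
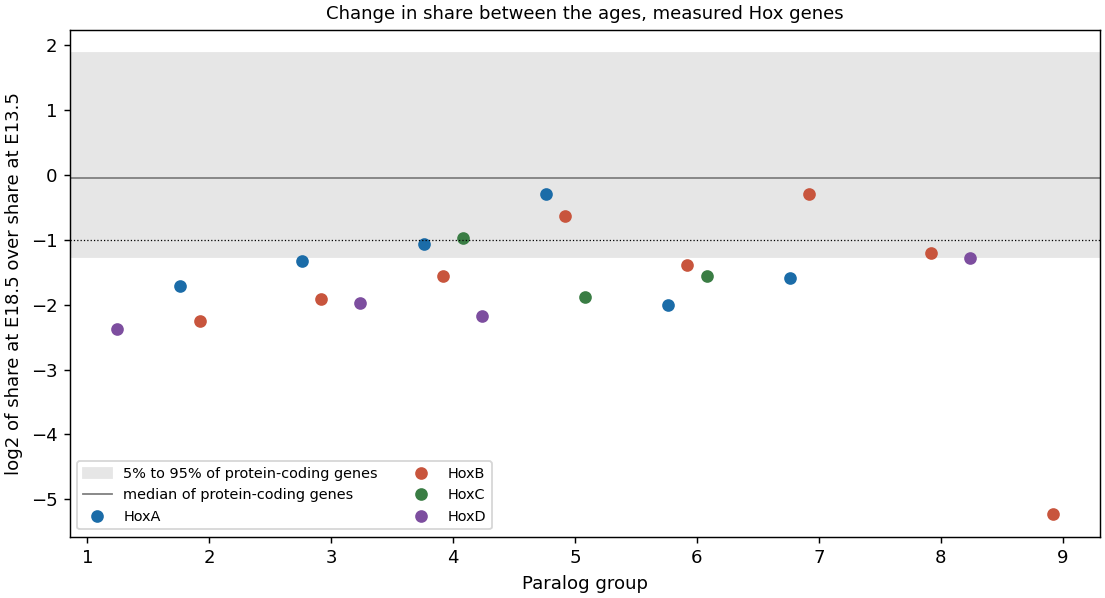
Log2 ratio of the share at E18.5 to the share at E13.5 for the measured Hox genes that are named here, by paralog group and coloured by cluster, with the median (line) and the range from the 5th to the 95th percentile (grey band, -1.26 to 1.88) of protein-coding genes and a dotted line at 2 times lower. All points lie below the median. Hoxb9 lies furthest at -5.22 and is 1 of 5 genes under 10 at E18.5.

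Of 43 noncoding rows within the clusters 9 were measured, each at E13.5, and all 9 had a lower share at E18.5, 8 of them at least 2 times lower. Only Haglr, Hoxaas2 and 5730596B20Rik also had at least 10 at E18.5. The others passed through E13.5 alone, so their direction follows from how they passed. The same counts over all noncoding genes were not made. Haglr, antisense within HoxD, had a mean normalized count of 199 at E13.5 and 63.7 at E18.5. Hoxaas2, antisense to Hoxa3, had 166 and 26.8, and Hotairm1, another noncoding RNA of HoxA, 13.1 and 7.27. The Evx genes, homeobox genes that flank HoxA and HoxD, also had a lower share at E18.5, 5.67-fold for Evx1 and 4.61-fold for Evx2. Evx1 lay beyond Hoxb2 (4.76-fold), the furthest of the Hox genes measured at both ages, and Evx2 lay near it. Evx1 had 202 and 30.6, and Evx2 440 and 82.2.

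Genes for partners and regulators of Hox proteins were mostly measured, and few differed as much. Over the 15143 protein-coding genes with at least 10 at either age, the median log2 ratio was -0.05 and 7.2% were at least 2 times lower. Of 9 cofactors of the PBX, MEIS and PKNOX families, which bind DNA with Hox proteins, 8 had a lower share at E18.5 and 2 were at least 2 times lower, with a median log2 ratio of -0.45. Pbx2 had a mean normalized count of 3551 at E13.5 and 1330 at E18.5. Of 21 Polycomb and trithorax genes, which keep Hox genes silent or active, 18 had a lower share and 3 were at least 2 times lower, with a median of -0.42. Ezh1 had 638 and 956, and Cbx2 1915 and 484. Of 15 regulators upstream of Hox genes 9 were measured, 5 with a lower share, with a median of -0.23. Aldh1a1, which makes retinoic acid, had 10.2 and 219, and Cyp26b1, which degrades it, 4670 and 1879.

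Markers of regions and other tissues moved between the ages as well. They are set beside the same median of -0.05 and the same 7.2% over the protein-coding genes. The 6 midbrain and isthmus markers were all at least 2 times lower at E18.5, with a median log2 ratio of -1.78. Of 10 hindbrain markers 9 had a lower share and 5 were at least 2 times lower, with a median of -1.39. The exception was Slc6a5, with a share 1.65-fold higher. The summed share of the hindbrain list was 731 ppm at E13.5 and 530 ppm at E18.5, of which Zic1, hardly different, held 362 ppm and 350 ppm. Motor neuron markers had a median of -0.75 over 7 measured of 8, telencephalon markers -0.37 over 7, and brain neuron markers 0.22 over 6. Fgf8 of the midbrain list, Ptf1a of the hindbrain list and Isl2 of the motor neuron list were under 10 at E18.5. They passed through E13.5 alone, so their direction follows from how they passed.

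Genes used as markers of tissues outside the brain were present too. Cartilage and sclerotome markers were lower at E18.5 in all 7 measured of 8, with a median log2 ratio of -2.54 and a summed share of 418 ppm at E13.5 and 105 ppm at E18.5. Sox9 and Uncx, which brain cells also express, made up much of that sum, and without them it was 208 ppm and 20.3 ppm. The list's median is the ratio of Uncx. Some of these markers, such as Pax1 with mean normalized counts of 25.4 and 1.01, passed the limit through E13.5 alone. Their direction follows from how they passed. Col2a1, the collagen of cartilage, had a mean normalized count of 5728 and 424. Of 7 skeletal muscle markers 3 were measured, with a median of 1.28 and a summed share of 2.88 ppm and 5.59 ppm, and they did not move one way. Acta1, the actin of muscle fibres, had a mean normalized count of 48.7 and 109, whereas Myog, a regulator of muscle differentiation, had 10.7 and 1.15. Myog passed the limit at E13.5 alone, and Tnnt3, whose ratio is the median, at E18.5 alone. No marker of either list was listed at 0. These lists moved with age beside the Hox genes, and their part in the Hox ratios was not tested.

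**Figure D4:**
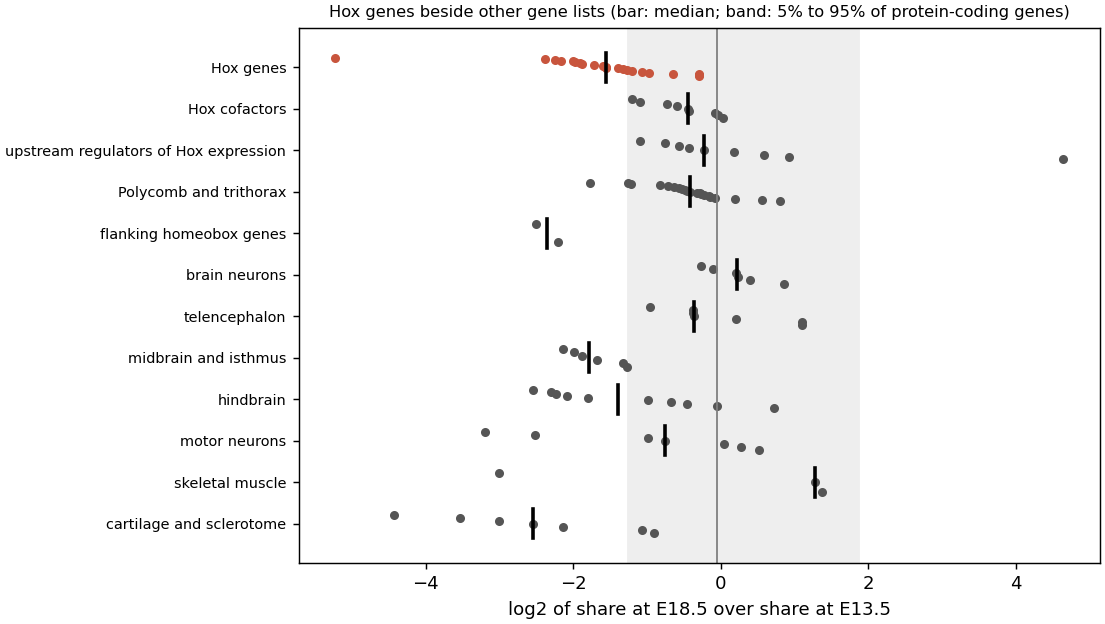
Log2 ratio of the share at E18.5 to the share at E13.5 for the measured genes of each list (points), with the list's median (bar) and the 5th to 95th percentile of protein-coding genes (band). The Hox median of -1.56, over the 22 genes measured at either age, lies near those of the midbrain and isthmus (-1.78) and hindbrain (-1.39) lists. It lies below those of the cofactors (-0.45) and Polycomb and trithorax genes (-0.42). Of the 22 genes 5 passed through E13.5 alone, so their direction follows from how they passed, as it does for Fgf8 and Ptf1a. Over the 17 Hox genes measured at both ages the median was -1.39.

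The clusters also hold miRNA genes of the miR-10 and miR-196 families, which are known to bind Hox mRNAs. Their mature sequences in RefSeq are shown with the seed, bases 2 to 8, in capitals, because members of a family share it across clusters.
miR-10a-5p, HoxB, chr11:96317186-96317208, plus strand: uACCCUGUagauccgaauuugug
miR-10b-5p, HoxD, chr2:74726074-74726096, plus strand: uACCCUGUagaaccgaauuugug
miR-196a-5p, HoxB and HoxC, chr11:96265187-96265208 and chr15:102973365-102973386, plus strand: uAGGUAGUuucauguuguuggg
miR-196b-5p, HoxA, chr6:52230129-52230150, minus strand: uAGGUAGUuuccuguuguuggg
The libraries do not select small RNAs, and the rows of these genes reached at most 1.41, for Mir10a at E13.5, so the levels of the mature miRNAs are not known from them.

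Exact matches to the seeds were searched on the mRNA strand of the longest annotated 3′ UTR of each gene. A match to the miR-10 seed (ACAGGGT) was found in 4 of 39 Hox genes, or 10.3%, Hoxa3, Hoxb3 and Hoxd1 among them, against 12.5% of all genes. A match to the miR-196 seed (ACTACCT) was found in 9 of 39, or 23.1%, against 6.10% of all genes. The genes with miR-196 matches included Hoxa4, Hoxa5, Hoxa7, Hoxa9, Hoxb1, Hoxb6, Hoxb7 and Hoxc8, and Hoxa7 had 4 matches. Of the 9 genes 6 were measured. Hoxb8 had no exact match, but a stretch of its 3′ UTR was identical to the full complement of miR-196a at 21 of 22 bases. The stretches are shown with matching seed bases in capitals for Hoxa7 and Hoxb7, and with every identical base in capitals for Hoxb8.
Hoxa7, chr6:52215210-52215231, minus strand: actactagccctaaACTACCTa
Hoxb7, chr11:96289784-96289805, plus strand: ctgtaaaaaaatatACTACCTa
Hoxb8, chr11:96284888-96284909, plus strand: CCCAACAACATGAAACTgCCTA
Hoxb8 and Hoxb7 were measured at both ages and Hoxa7 at E13.5. A match is a property of the sequence and not a measured effect.

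RefSeq promoter windows on GRCm38.p6 were at hand for 22 of the 39 Hox genes, 24 windows of the 250 bases before a start site. HoxB had windows only for Hoxb1, Hoxb4 and Hoxb8, and HoxC only for Hoxc4, so the windows mostly describe HoxA and HoxD. For Hoxd13, Hoxd10, Hoxa3 and Hoxa7 the bases shortly after the start site were not found in a GENCODE vM21 transcript of the gene. TATAAA, on either strand, was in 4 of the 24, against 12.4% of 32851 windows of all genes. CCAAT was in 14, against 33.9%, and TGATNNAT, a site shape of Hox proteins with PBX cofactors, in 4, against 7.68%. The windows of measured Hox genes held a median of 12 CpG sites and those of the others 13, against 6 over all windows.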

How the data were processed

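The deposited tables, 1 for each age, list 41934 genes with the authors' DESeq2 comparison of Dio3-/- with Dio3+/+. Per the labels and the study's methods, reads were trimmed with cutadapt 3.1, aligned with STAR 2.5.3a to GRCm38 (GENCODE VM22), freed of rRNA and tRNA with bedtools 2.26.0, counted per gene with HTSeq without strand, adjusted for sequencing batch with ComBat-seq, and normalized in DESeq2 1.30.1 (R 4.0.3). The columns of fold change, error, statistic and p were not used. The signal used is the authors' mean normalized count over the libraries of an age. It has no replicate values, so no test, interval or depth per library could be given.

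The share of a gene is its value over the sum of its table, in ppm. Exon lengths came from GENCODE vM21, which matched 41897 IDs and missed 37. Means of at least 10 were counted as measured, and differences of at least 2 times were counted. All measured Hox genes were named with values, apart from items not reported here by name, and from each other list at most 4 genes, namely the highest, the lowest and up to 2 with the ratio furthest from 1. The members and lists were chosen with earlier results of these data known. Python 3.11.15, pandas 2.3.3 and scipy 1.17.1 were used, and the calculation of shares was tested on simulated data. A comparison of homeodomain sequences had been planned and was not run.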

Additional observations from a re-analysis of the deposited data

How the results depend on the processing

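Over 40 values and 107 alternatives, 80 stayed within 1.5 times, or within 0.1 for a rho, 23 moved further and 4 changed sign. The 17 Hox genes measured at both ages had a lower share at E18.5 under every scaling. So did the 5 measured at E13.5 alone, whose direction follows from how they passed. On the deposited scale the median gene was itself lower at E18.5 by a log2 ratio of -0.28. The alternatives by unshared exon, share per kb, Gm26917 (4.62% of the table at E13.5 and 2.22% at E18.5), highest member and Hoxb9 were chosen after seeing the data.

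Without genes that overlap an exon of the other strand, HoxC held 24.4% at E13.5 and 20.3% at E18.5, HoxD 1.2996% and 0.699%, group 3 0% and 0% (all its members overlap), group 6 10.7% and 7.48%, group 8 15.1% and 13.2%, and group 9 2.65% at E13.5. Per kb of exon, HoxD held 1.73% at E18.5, group 3 9.62% and 5.86%, and group 6 10.7% at E13.5. Without its highest member, HoxA held 22.9% and 21.6%, HoxC 7.01% and 4.16%, and HoxD 1.78% and 0.900%.

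The number of Hox genes at least 2 times lower was 12 of 17 among those with at least 10 at both ages, and 11 of 16 among those with at least 80% of exon bases unshared, fewer genes being left. The rho of paralog number and log2 ratio was -0.13 there and 0.31 without Hoxb9. The HoxB rho at E13.5 was -0.0424 by longest transcript, -0.00606 by coding length and -0.0788 by unshared bases. Beyond these the cause was not tested.

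No paired analysis was possible because the values are means over all libraries of an age, so leaving out each library in turn was not run either. The depth of the libraries is unknown, which limits the values under 10 most.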
